A study of Homo sapiens with 9 samples.

Results

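Collagen chain genes, those whose symbol is COL, a number, A and a number, were followed from undifferentiated human embryonic stem cells (hESC) to day 14 of an otic differentiation protocol. Every probe set that the platform annotation assigns to 1 such gene was taken, which gave 112 probe sets for 43 genes among the 19775 genes measured. Each gene is represented by the probe set that was brightest on average over the 9 arrays. COL17A1, a transmembrane collagen, was not analysed here.

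The study asked how FGF3 and FGF10, signals that induce the inner ear, act on hESC differentiated towards otic progenitors. The group called hESC held undifferentiated cells at day 0, grown with serum replacement and 4 ng/ml bFGF over a layer of inactivated mouse embryonic fibroblasts. The group called DFNB held cells that were dissociated and then differentiated for 14 days on a laminin coat, in medium without serum whose supplements were N2 and B27. The group called FGF3+10 differed from DFNB by the addition of FGF3 and FGF10 at 50 ng/ml each. The established lines Shef3, H14 and Shef1 are given no engineered allele in the labels, and each line gave 1 array in each group, so that a group has n = 3 and its spread includes differences between lines. The labels do not say whether feeders were removed before RNA was taken, nor whether cultures were repeated within a line. P-values therefore measure the spread between these arrays.

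Collagens are triple-helical proteins of the extracellular matrix, built from 3 chains that may be products of 1 or several genes. Fibrillar collagens form the fibrils of connective tissue and cartilage, and FACIT collagens sit on the surface of those fibrils. Type IV chains form the sheet-like network of basement membranes, type VI forms beaded microfilaments, and transmembrane collagens span the cell surface. In the inner ear, types II, IX and XI belong to the tectorial membrane and the otic capsule, and type IV to the basement membranes around the epithelium.

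The 43 genes fell into 11 fibrillar, 6 basement membrane, 10 FACIT, 3 transmembrane, 2 multiplexin, 5 beaded filament and 3 network-forming chains, 1 anchoring fibril chain and 2 others. Levels are deposited values on a log scale, taken as log2 because no source states the base, and all arrays share a median of 3.20. A level of 4 served here as the lower limit for describing a gene, since the 8273 genes with a mean below 4 had a median SD within groups of 0.919, and the other 11502 one of 0.448. A mean of 4 or more was reached by 32 collagens, and 25 of them were at 4 or more on all 9 arrays. The chains below 4 on every array were COL4A3, COL19A1, COL20A1, COL25A1, COL6A5, COL6A6, COL10A1 and COL28A1. Values of different genes come from different probe sets and are not ranked against each other. In bulk RNA, fewer cells of a type and less RNA per cell cannot be told apart.

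The arrays were checked against their labels with 12 measured pluripotency genes. Their mean level on the hESC arrays was 9.87, 9.34 and 8.67 for the lines Shef3, H14 and Shef1. At day 14 it was 1.78 in DFNB and 1.92 in FGF3+10 for Shef3, but 5.57 and 6.76 for H14 and 7.03 and 6.94 for Shef1. The day 14 arrays of H14 and Shef1 thus read higher for pluripotency transcripts than those of Shef3. The hESC arrays also read endoderm markers, with means over 8 genes of 8.88, 8.18 and 7.24 in the same line order. At day 14 these means were 3.83, 5.21 and 4.94 in DFNB and 5.15, 4.65 and 3.43 in FGF3+10. All 8 were lower than in hESC in every line in both media (25.9% and 24.6% of all genes). Poly-A spike-ins, added to the RNA before labelling, read 7.43 to 7.50 on the Shef1 arrays against 5.04 to 5.72 for the other lines, so Shef1 stood apart in all 3 groups. The part of any of these differences in the collagen values was not tested.

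A window of bases before the start site was available for 31 of the 43 collagens, and not for COL1A1, COL2A1, COL6A1 or COL9A3. Among those with a window, COL11A1 was higher at day 14 in every line, and COL6A3 and COL6A2 were lower with the FGFs. Shown first, from RefSeq on GRCh38.p14, are the stretches for these chains and the interval shared by COL4A1 and COL4A2. All are written 5′ to 3′. Capitals mark 3 promoter motifs, searched on both strands: one known as the CCAAT box, one found in many TATA boxes (TATAAA) and one found in GC boxes (GGGCGG). No marked match overlaps another.
COL11A1 (chr1:103108523-103108772, minus strand): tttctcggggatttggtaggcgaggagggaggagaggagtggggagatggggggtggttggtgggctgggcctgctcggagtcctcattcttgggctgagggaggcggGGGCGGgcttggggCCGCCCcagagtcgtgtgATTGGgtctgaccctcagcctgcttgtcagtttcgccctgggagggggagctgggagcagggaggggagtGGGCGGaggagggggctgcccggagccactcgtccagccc
COL6A3 (chr2:237414165-237414414, minus strand): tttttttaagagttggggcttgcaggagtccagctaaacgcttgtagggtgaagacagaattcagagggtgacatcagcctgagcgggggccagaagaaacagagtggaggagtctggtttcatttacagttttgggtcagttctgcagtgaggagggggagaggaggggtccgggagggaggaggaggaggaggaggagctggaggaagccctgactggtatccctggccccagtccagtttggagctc
COL6A2 (chr21:46097862-46098111, plus strand): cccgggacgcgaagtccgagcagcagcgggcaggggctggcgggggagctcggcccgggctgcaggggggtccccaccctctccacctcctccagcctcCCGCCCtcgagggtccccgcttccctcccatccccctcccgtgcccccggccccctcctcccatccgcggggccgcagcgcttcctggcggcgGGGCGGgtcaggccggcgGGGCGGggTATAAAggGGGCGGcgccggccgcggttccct
COL4A1 and COL4A2 (chr13:110307158-110307283, plus strand): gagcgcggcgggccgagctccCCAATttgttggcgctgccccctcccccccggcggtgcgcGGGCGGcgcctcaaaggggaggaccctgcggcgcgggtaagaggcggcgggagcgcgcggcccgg

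The COL11A1 stretch of 250 bases held 1 CCAAT, 3 GGGCGG and no TATAAA. COL6A2 held 1 TATAAA, 4 GGGCGG and no CCAAT, whereas COL6A3 held none of the 3. The COL4A1 and COL4A2 genes start 126 bases apart and run in opposite directions, and the bases between them, shown on the strand of COL4A2, held 1 CCAAT and 1 GGGCGG. Of 35116 RefSeq windows of 250 bases, 32.0% held CCAAT, 10.7% TATAAA and 42.6% GGGCGG, and over 126 bases the shares were 21.1%, 5.87% and 34.6%. Among the 31 collagens with a window, 8, 4 and 18 held these motifs. A match describes the letters of the window and not a bound site.

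**Figure D1:**
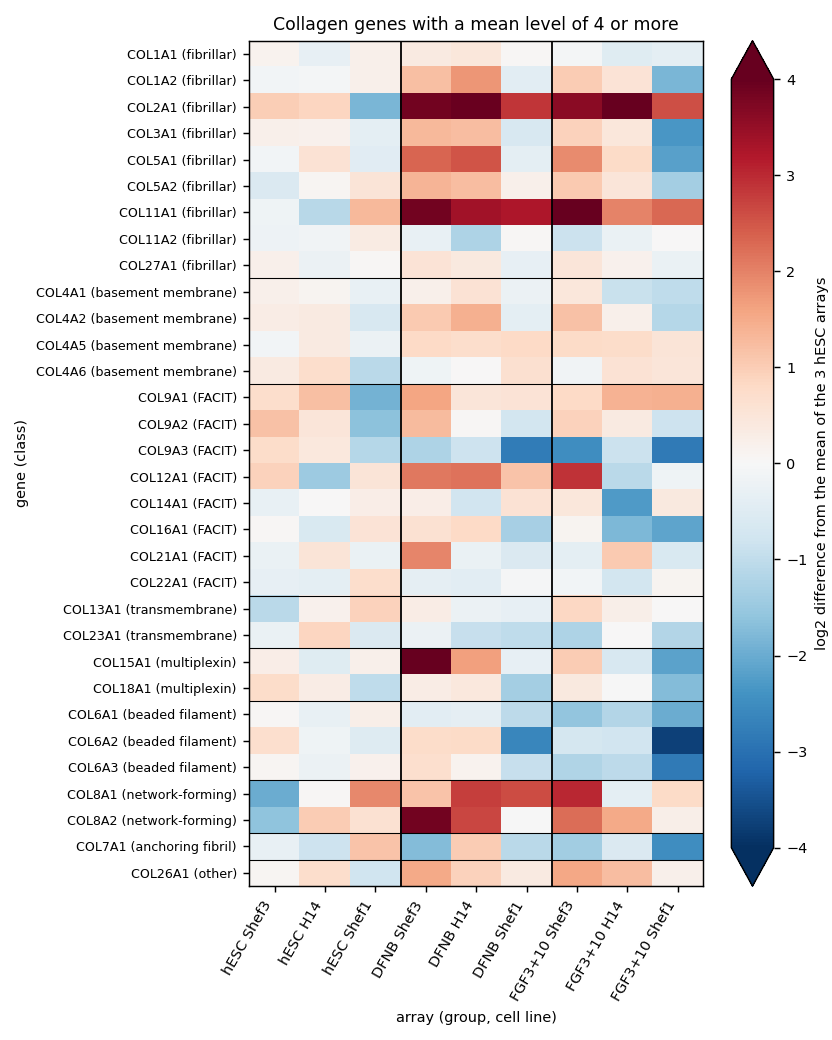
Levels of the 32 collagen genes with a mean of 4 or more (rows, by class) on the 9 arrays (columns), as log2 difference from the mean of the 3 hESC arrays. COL2A1 and COL11A1 are red on all day 14 arrays, and the type VI chains are blue on all FGF3+10 arrays.

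Across the 43 collagens the median difference from hESC was 0.17 in DFNB and 0.02 in FGF3+10, against -0.19 in both for all genes. With quantile normalization the medians of all genes were -0.08 and -0.06, and those of the collagens 0.28 and 0.15. Both comparisons use the same hESC arrays, so they are not independent of each other. No collagen passed an adjusted p of 0.05 in limma for DFNB against hESC, where 0.202% of all genes did, or for FGF3+10 against hESC, where 0.177% did. At an unadjusted p below 0.05, 3 collagens were higher and 2 lower in DFNB, where 15.8% of all genes passed (6.11% higher and 9.69% lower), and 3 were higher and 4 lower in FGF3+10, where 12.0% passed (4.52% and 7.47%). With the cell line as a block COL2A1 passed in both comparisons, at 0.956% and 0.582% of all genes.

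The lines differed in these medians. For DFNB minus hESC the collagen median was 0.56, 0.36 and -0.32 for the lines Shef3, H14 and Shef1. All genes had medians of -0.31, -0.29 and 0.04. For FGF3+10 minus hESC the collagen median was 0.24, -0.11 and -0.61, and that of all genes -0.39, -0.23 and 0.06. In DFNB 29 of 43 collagens were higher than in hESC for Shef3, 24 for H14 and 16 for Shef1. Of 19775 genes, 7683, 7654 and 10430 were higher in these lines. Shef1 was thus the line in which most collagens were lower at day 14. Higher in all 3 lines were 9 collagens in DFNB (15.9% of all genes) and 6 in FGF3+10 (13.3%), and lower in all were 8 (25.9%) and 10 (24.6%). Groups did not overlap for 5 collagens that were higher in DFNB (7.8% of all genes) and 3 in FGF3+10 (5.68%), and for 3 and 4 that were lower (14.3% and 11.3%). COL2A1, COL11A1 and COL4A5 were the higher ones in both, with COL24A1 and COL12A1 in DFNB. As shares of the 43, the counts over all lines are 20.9%, 14.0%, 18.6% and 23.3%. Fewer lines make such counts larger by construction, and without Shef1 they were 21 and 16 higher and 11 and 14 lower, without H14 12 and 8 higher and 10 and 12 lower, and without Shef3 10 and 6 higher and 13 and 19 lower. Shares of all genes with a line left out are not given here, so these counts do not set collagens apart.

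COL2A1, which encodes the type II chain of cartilage, vitreous and tectorial membrane, had the highest day 14 difference of any collagen. COL2A1 read 7.60, 7.48 and 4.82 in hESC (Shef3, H14 and Shef1, in this order throughout), 10.48, 10.59 and 9.49 in DFNB and 10.25, 11.09 and 9.21 in FGF3+10. Every day 14 array was above every hESC array, and Shef1 was the lowest line in each group. The difference was 3.55 ± 0.80 (SE) in both media, with a limma adjusted p of 0.105 for DFNB and 0.130 for FGF3+10. With the cell line as a block the SE was 0.42 and the adjusted p-values 0.0333 and 0.0373, so that COL2A1 rose in both media by that fit. The other COL2A1 probe set gave 3.71 and 3.56. DFNB and FGF3+10 had the same mean of 10.19, with SDs of 0.61 and 0.94.

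COL11A1 encodes a type XI chain that co-assembles with type II in cartilage fibrils. COL11A1 read 6.63, 5.71 and 8.11 in hESC, 10.69, 10.18 and 10.06 in DFNB and 10.89, 8.80 and 9.12 in FGF3+10. The groups did not overlap, and hESC of Shef1 was the highest of the undifferentiated arrays. The difference was 3.49 ± 0.71 in DFNB (adjusted p = 0.0827, and 0.0613 with the block) and 2.79 ± 0.71 in FGF3+10 (0.170, and 0.118 with the block). The other COL11A1 probe sets gave 4.38 and 4.41 in DFNB, and 3.70 and 3.82 in FGF3+10. COL11A2, the partner chain in type XI, lay between 3.20 and 4.76 on all arrays, with differences of -0.50 ± 0.41 and -0.37 ± 0.41.

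Type IX chains, FACIT members that decorate type II fibrils, did not follow type II as a set. The levels of COL9A1 were 5.38, 5.90 and 2.79 in hESC, 6.28, 5.18 and 5.25 in DFNB and 5.49, 6.09 and 6.11 in FGF3+10. The difference was 0.88 ± 0.75 in DFNB and 1.21 ± 0.75 in FGF3+10, and it was largest in Shef1, whose hESC array was low. In hESC COL9A3 stood at 9.06, 8.72 and 7.16, in DFNB at 7.07, 7.50 and 5.52 and in FGF3+10 at 5.84, 7.44 and 5.47. COL9A3 was lower at day 14 in all lines, by -1.62 ± 0.74 in DFNB (adjusted p = 0.336) and -2.06 ± 0.74 in FGF3+10 (adjusted p = 0.322), with groups that overlapped. Shef1 was its lowest line in each group. With the cell line as a block in limma the COL9A3 SE was 0.40 and the adjusted p-values 0.107 and 0.0913. COL9A2 differed by 0.19 ± 0.82 and 0.16 ± 0.82, with 1 of 3 lines higher in FGF3+10.

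COL5A3, a minor type V chain, was lower in both media. On the hESC arrays COL5A3 gave 5.02, 5.09 and 5.06, on the DFNB arrays 3.19, 3.84 and 3.64 and on the FGF3+10 arrays 3.56, 2.35 and 3.47. The hESC arrays agreed closely, with an SD of 0.04, and all were above the day 14 arrays. The difference was -1.50 ± 0.38 in DFNB (adjusted p = 0.141) and -1.93 ± 0.38 in FGF3+10 (adjusted p = 0.101). The day 14 values lay below 4, in the noisier range. The other COL5A3 probe set, below 4 on all arrays, gave -3.64 and -3.97.

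**Figure D2:**
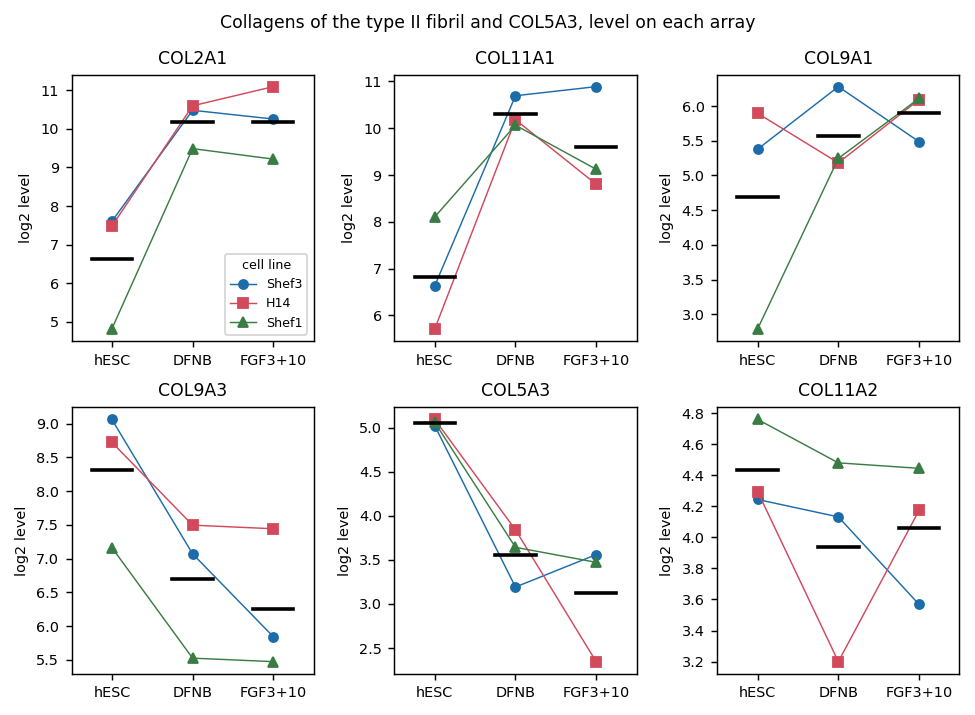
Level in log2 units of 6 collagens on each array by group, each line joining the arrays of 1 cell line and each black bar giving the mean of 3. COL2A1 and COL11A1 are above all their hESC values at day 14, COL5A3 is below them, and COL9A1, COL9A3 and COL11A2 overlap between groups.

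Markers of cartilage were read beside the type II and XI values. Among 9 cartilage genes, none was called in either day 14 comparison. At an unadjusted p below 0.05, 3 were higher in each (6.11% and 4.52% of all genes), and 1 was lower in FGF3+10 (7.47%). The list medians were -0.09 in DFNB and -0.10 in FGF3+10. SOX9, a transcription factor that drives COL2A1 in cartilage and is active in otic and neural crest cells, read 5.62, 6.65 and 6.41 in hESC, 8.61, 8.75 and 7.62 in DFNB and 8.31, 8.12 and 7.40 in FGF3+10. SOX5 lay between 4.97 and 5.55 in hESC and between 6.36 and 7.17 at day 14. SOX6 lay between 3.62 and 4.93 in hESC and between 5.95 and 7.93 at day 14. ACAN, the main cartilage proteoglycan, lay between 2.75 and 4.38 at day 14 and between 3.89 and 4.93 in hESC, and MATN1 and CHAD were below 4 on all arrays of every group. MATN3 lay between 6.37 and 7.91 in hESC and between 4.81 and 6.31 at day 14. COMP spanned 1.60 to 4.15 in hESC and 2.37 to 4.32 at day 14, and HAPLN1 spanned 7.29 to 9.72 over all arrays. The mean level of the list spanned 4.22 to 4.72 in hESC, 4.85 to 5.31 in DFNB and 4.49 to 5.19 in FGF3+10. Markers of lens and eye field, the eye being another site of type II collagen, had list means of 0.41 to 2.26 in hESC, 3.87 to 7.18 in DFNB and 7.15 to 7.64 in FGF3+10. Of these 10 genes limma called 1 higher in DFNB (0.202% of all genes) and 2 in FGF3+10 (0.177%). Their part in the COL2A1 result was not tested.

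COL1A1, COL1A2, COL3A1, COL5A1 and COL5A2, of the type I, III and V fibrils of soft connective tissue, were higher in DFNB than in hESC in Shef3 and H14 but mostly not in Shef1. Over the 11 fibrillar chains the median of DFNB minus hESC was 1.33, 1.14 and -0.25 for the lines Shef3, H14 and Shef1. For FGF3+10 minus hESC it was 1.13, 0.40 and -1.59. None of these chains passed in limma, with or without the block, apart from COL2A1 with it.

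COL1A1 and COL1A2 encode the chains of type I collagen. COL1A1 read 12.06, 11.61 and 12.13 in hESC, 12.30, 12.40 and 11.97 in DFNB and 11.87, 11.44 and 11.54 in FGF3+10. The levels of COL1A2 were 10.89, 10.93 and 11.19 in hESC, 12.22, 12.76 and 10.60 in DFNB and 12.02, 11.56 and 9.18 in FGF3+10. For COL1A2 the DFNB arrays of Shef3 and H14 were the highest and the FGF3+10 array of Shef1 the lowest. The differences of DFNB from hESC were 0.29 ± 0.29 for COL1A1 and 0.86 ± 0.79 for COL1A2, each with 2 of 3 lines higher. Other probe sets averaging 4 or more gave 0.99, 1.34 and 0.16 for COL1A1, and 1.09 and 1.81 for COL1A2. The size of the COL1A1 difference thus varied with the probe set. The differences of FGF3+10 from hESC were -0.32 ± 0.29 for COL1A1 and -0.08 ± 0.79 for COL1A2.

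In hESC COL3A1 stood at 11.66, 11.61 and 11.06, in DFNB at 12.74, 12.67 and 10.81 and in FGF3+10 at 12.36, 11.88 and 9.11. COL3A1, the type III chain of distensible tissues, was therefore high on the DFNB arrays of Shef3 and H14 and lowest in Shef1 with the FGFs. On the hESC arrays COL5A1 gave 8.51, 9.20 and 8.17, on the DFNB arrays 10.96, 11.15 and 8.25 and on the FGF3+10 arrays 10.53, 9.38 and 6.44. COL5A2 read 9.32, 9.99 and 10.42 in hESC, 11.28, 11.13 and 10.11 in DFNB and 10.96, 10.39 and 8.56 in FGF3+10. These type V chains, which start type I fibrils, were also lowest in Shef1 in both media. The differences of DFNB from hESC were 0.63 ± 0.86 for COL3A1, 1.49 ± 1.10 for COL5A1 and 0.93 ± 0.64 for COL5A2, with adjusted p-values of 0.751, 0.536 and 0.508. Other COL3A1 probe sets averaging 4 or more gave 0.93, and 1.19 with all lines higher. COL24A1, a minor fibrillar chain, had a mean below 4 and differed by 2.28 ± 1.16.

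The comparison of FGF3+10 with DFNB isolates the added FGFs at day 14. The median difference over the collagens was -0.44, against 0.00 for all genes. By line it was -0.06, -0.58 and -0.20 for Shef3, H14 and Shef1, against -0.10, 0.08 and 0.03 for all genes. Among genes with a mean of 4 or more the collagen median by line was -0.27, -0.80 and -0.40, against -0.11, 0.08 and 0.04. In Shef3 the collagen median was thus below that of all genes only when chains with a mean below 4 were left out. With quantile normalization the median difference over the collagens was -0.43, against 0.03 for all genes. No collagen passed in limma (0.0% of all genes did, with or without the block), and at an unadjusted p below 0.05, which 1.52% of all genes met, none was higher (0.723%) and 2 were lower (0.794%), COL6A1 and COL6A3. Lower in all 3 lines were 13 collagens, or 30.2%, where 12.5% of all genes were, and 3 were higher in all lines, where 9.4% were. Of the 32 with a mean of 4 or more, 11 were lower in all lines (12.8% of such genes) and COL13A1 alone was higher (6.87%). Groups did not overlap for 3 that were lower, COL1A1, COL6A1 and COL6A3 (1.72% of all genes), and for COL25A1, which was higher (1.46%) but below 4 throughout. Leaving out Shef3 gave 23 lower collagens over the remaining lines, leaving out H14 gave 19 and leaving out Shef1 gave 15, and the higher ones were then 5, 8 and 5. Without the shares of all genes over the same lines, these counts are not read as a collagen result.

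Among the 13 were 6 of the 11 fibrillar chains, COL1A1, COL1A2, COL3A1, COL5A1, COL5A2 and COL24A1. The fibrillar median was -0.71, and it was -0.31, -0.78 and -0.94 for the lines Shef3, H14 and Shef1. COL1A1 differed by -0.43, -0.95 and -0.43 for the lines Shef3, H14 and Shef1, or -0.60 ± 0.29 on average (unadjusted p = 0.0692, adjusted p = 1.00). Of the other COL1A1 probe sets averaging 4 or more, 2 gave -1.29 and -1.35 and were lower in all lines, and 1 gave -0.25 with 1 of 3 lines higher. COL1A2, COL3A1, COL5A1 and COL5A2 differed by -0.94 ± 0.79, -0.96 ± 0.86, -1.34 ± 1.10 and -0.87 ± 0.64, and in each the difference was smallest in Shef3. With the cell line as a block their SEs were 0.62, 0.51, 0.66 and 0.62. COL2A1 and COL27A1 differed by less than 0.1 on average, the former with an SE of 0.80.

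COL6A1, COL6A2 and COL6A3, the beaded filament chains of the common type VI molecule, which links cells to the fibrillar matrix, were lower with the FGFs in every line and lower than in hESC as well. The levels of COL6A1 were 10.38, 10.03 and 10.57 in hESC, 9.91, 9.98 and 9.27 in DFNB and 8.76, 9.16 and 8.35 in FGF3+10. In hESC COL6A3 stood at 10.22, 9.93 and 10.32, in DFNB at 10.82, 10.29 and 9.22 and in FGF3+10 at 8.96, 9.11 and 7.34. On the hESC arrays COL6A2 gave 8.51, 7.64 and 7.32, on the DFNB arrays 8.55, 8.59 and 5.21 and on the FGF3+10 arrays 7.13, 7.06 and 4.10. For COL6A1 and COL6A3 all FGF3+10 arrays were below all DFNB and all hESC arrays, while COL6A2 overlapped with DFNB because its DFNB array of Shef1 was low. FGF3+10 minus DFNB was -0.96 ± 0.34 for COL6A1, -1.64 ± 0.56 for COL6A3 and -1.35 ± 1.08 for COL6A2, with an adjusted p of 1.00 for each. With the cell line as a block in limma, their SEs were 0.33, 0.46 and 0.59 and the unadjusted p-values 0.0253, 0.0101 and 0.0593. Against hESC the differences were -1.57 ± 0.34, -1.68 ± 0.56 and -1.72 ± 1.08, with adjusted p-values of 0.121, 0.282 and 0.564. DFNB itself differed from hESC by -0.61 ± 0.34, -0.04 ± 0.56 and -0.37 ± 1.08. COL6A5 and COL6A6, alternative chains, were below 4 on all arrays.

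**Figure D3:**
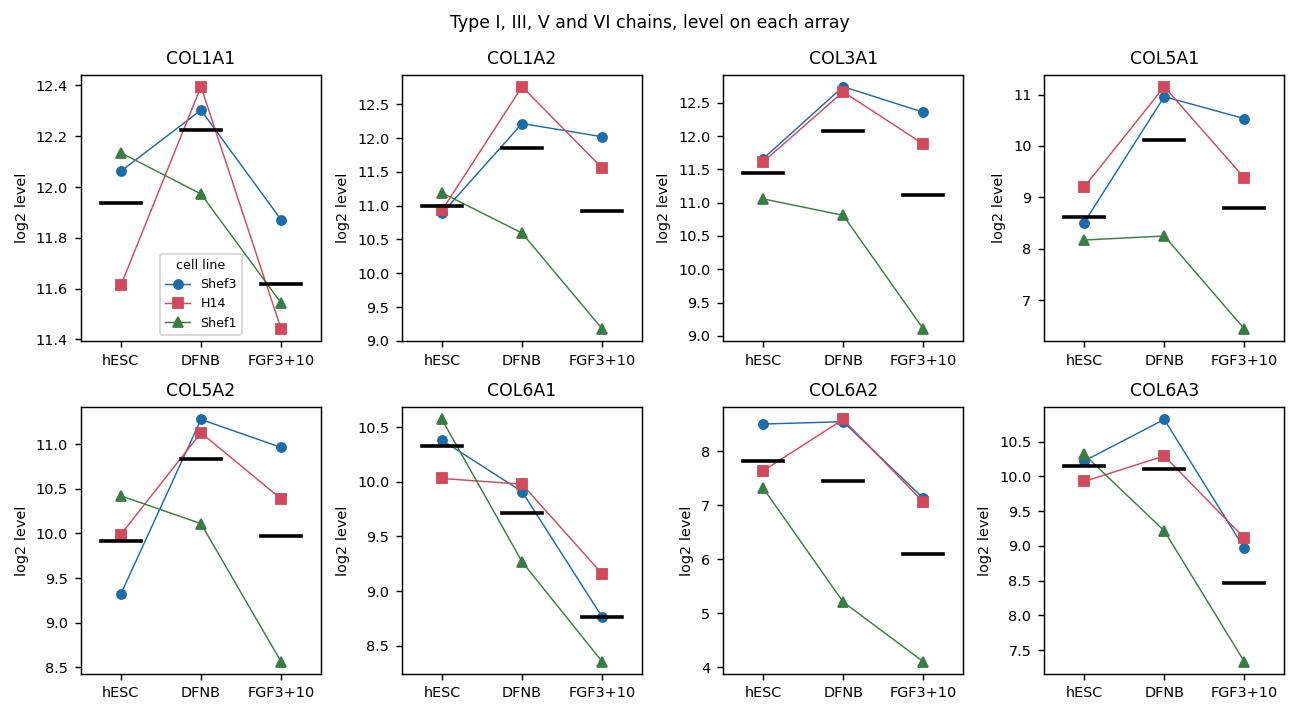
Level in log2 units of type I, III, V and VI chains on each array by group, each line joining the arrays of 1 cell line and each black bar giving the mean of 3 (axes differ and do not start at 0). In every panel each line is lower in FGF3+10 than in DFNB, and Shef1 has the lowest FGF3+10 level except for COL1A1.

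**Figure D4:**
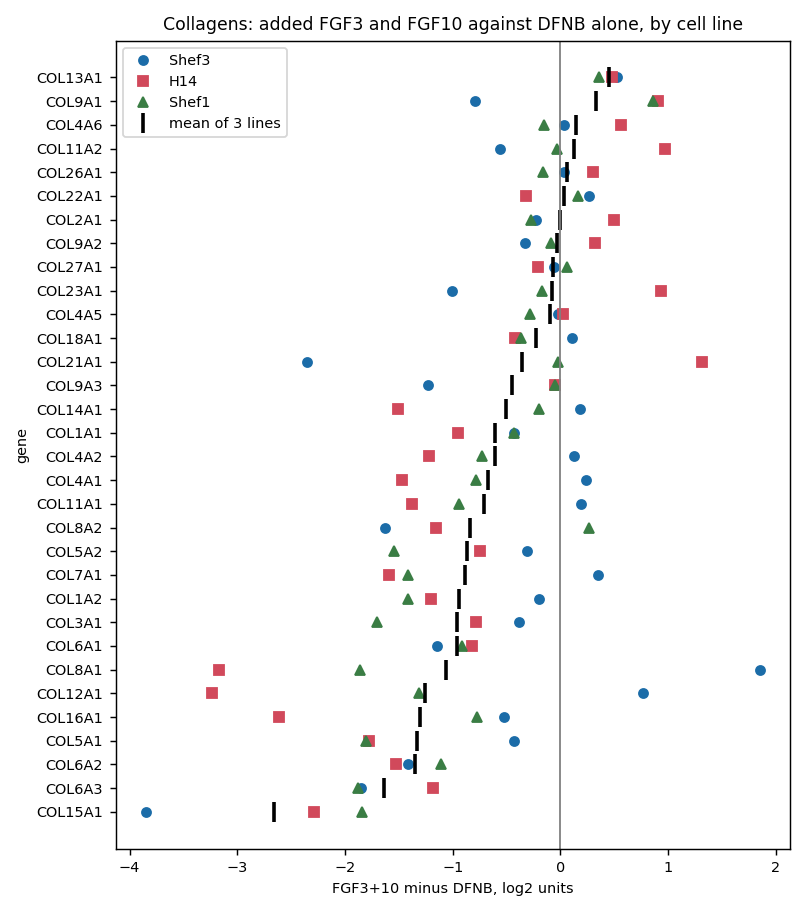
Difference of FGF3+10 from DFNB in log2 units for the 32 collagens with a mean of 4 or more, 1 symbol per cell line and a black bar for the mean. COL13A1 is above 0 in all lines, and 11 collagens are below 0 in all lines.

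Mesenchyme and fibroblast markers differed in the same comparison. Of 14 such genes none was called, and 9 were lower in all 3 lines (12.5% of all genes). The median of FGF3+10 minus DFNB was -1.30, with -0.21, -1.46 and -2.00 for the lines Shef3, H14 and Shef1. Their mean level was 5.07, 5.52 and 6.71 on the hESC arrays, 8.62, 7.95 and 6.60 in DFNB and 8.38, 5.20 and 4.38 in FGF3+10. These means include values far below 4, so the sizes of their differences are uncertain. In FGF3+10 of H14 and Shef1, FAP read -5.83 and -2.92 and MGP -3.97 and -1.30. In hESC of Shef3 they read -6.06 and -4.97. In hESC 2 of them, FBLN5 and FAP, were below 4 on all arrays, and at day 14 none was. In H14 and Shef1, where these markers were lower with the FGFs by more than in Shef3, COL1A2, COL3A1, COL5A1 and COL5A2 were also lower by more. In Shef3, whose marker means were 8.62 and 8.38, COL6A1, COL6A2 and COL6A3 differed by -1.15, -1.42 and -1.85. The part of the markers in these differences was not tested. Of 7 endothelial markers, CDH5 and ESAM were below 4 and PECAM1, KDR and TEK above 4 on all arrays, and the list mean spanned 2.86 to 3.74 in hESC, 3.33 to 3.69 in DFNB and 2.91 to 3.85 in FGF3+10.

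Among basement membrane chains, COL4A1 and COL4A2, whose products form the common type IV network and whose genes share the interval shown above, had similar patterns. COL4A1 read 11.42, 11.32 and 10.90 in hESC, 11.42, 11.81 and 10.97 in DFNB and 11.66, 10.34 and 10.19 in FGF3+10. The levels of COL4A2 were 10.54, 10.62 and 9.61 in hESC, 11.29, 11.67 and 9.85 in DFNB and 11.42, 10.45 and 9.12 in FGF3+10. Both were highest in DFNB of H14 and lowest in FGF3+10 of Shef1. FGF3+10 minus DFNB was -0.67 ± 0.44 and -0.61 ± 0.68, lower in H14 and Shef1 and higher in Shef3 by 0.24 and 0.12. DFNB minus hESC was 0.18 ± 0.44 and 0.68 ± 0.68, and COL4A2 was higher in all 3 lines.

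COL4A5 and COL4A6 form another pair of opposed genes, whose chains occur together in some basement membranes. In hESC COL4A5 stood at 8.38, 8.84 and 8.27, in DFNB at 9.30, 9.20 and 9.30 and in FGF3+10 at 9.27, 9.22 and 9.02. All day 14 arrays of COL4A5 were above all hESC arrays, and the range at day 14 was narrow. The difference was 0.77 ± 0.27 in DFNB (adjusted p = 0.243) and 0.67 ± 0.27 in FGF3+10 (adjusted p = 0.373). On the hESC arrays COL4A6 gave 8.42, 8.75 and 6.98, on the DFNB arrays 7.88, 8.08 and 8.68 and on the FGF3+10 arrays 7.91, 8.64 and 8.53. By this probe set COL4A6 was lower at day 14 in Shef3 and H14 and higher in Shef1, with means of 0.16 ± 0.50 and 0.31 ± 0.50. Of its other probe sets averaging 4 or more, 1 gave 1.45 in DFNB and 1.40 in FGF3+10, the latter with all 3 lines higher. Another gave the opposite sign, at -0.54 and -0.38, so the COL4A6 result varied with the probe set. COL4A3 was below 4 on all arrays, and COL4A4 was above 4 only in DFNB of Shef3 and H14 and in FGF3+10 of Shef3.

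The multiplexins COL18A1 and COL15A1 belong to basement membrane zones, and COL18A1 is the source of endostatin. COL18A1 read 10.22, 9.79 and 8.47 in hESC, 9.79, 9.90 and 8.14 in DFNB and 9.89, 9.48 and 7.77 in FGF3+10. The levels of COL15A1 were 5.44, 4.69 and 5.39 in hESC, 10.04, 6.82 and 4.86 in DFNB and 6.19, 4.54 and 3.02 in FGF3+10. COL18A1 was lower in Shef1 than in the other lines in every group, whereas COL15A1 had 1 array far above the rest, DFNB of Shef3. COL15A1 differed between FGF3+10 and DFNB by -3.85, -2.28 and -1.84, the lowest mean difference of any collagen at -2.66 ± 1.24 (unadjusted p = 0.0628, adjusted p = 1.00). With the cell line as a block in limma the SE was 0.87 and the unadjusted p 0.0205. Against hESC COL15A1 differed by 2.07 ± 1.24 in DFNB and -0.59 ± 1.24 in FGF3+10.

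**Figure D5:**
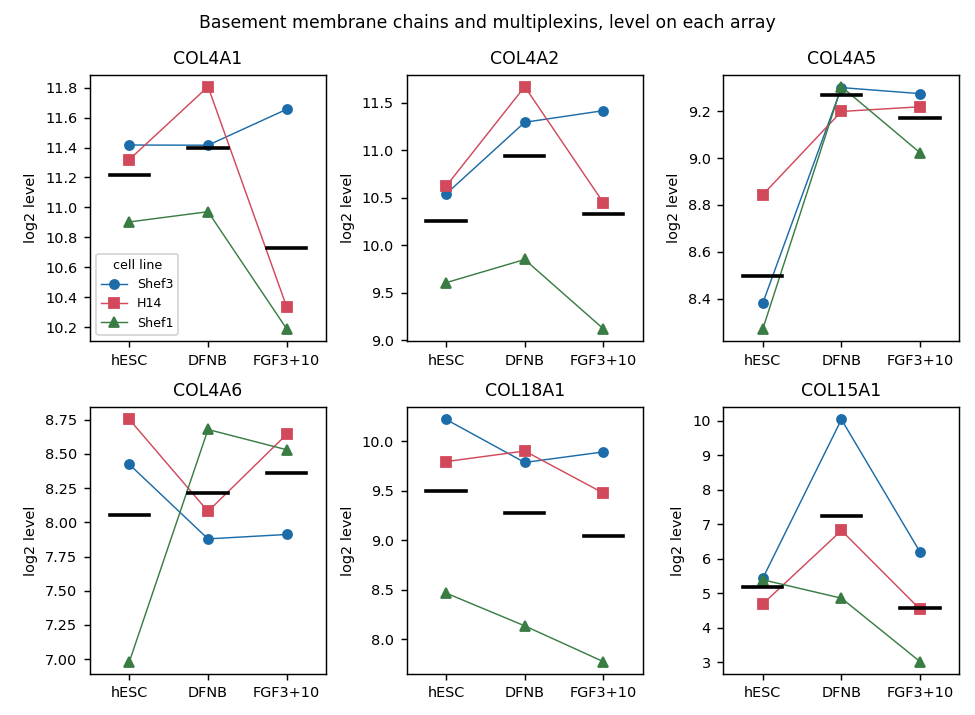
Level in log2 units of 4 basement membrane chains and both multiplexins on each array by group, each line joining the arrays of 1 cell line and each black bar giving the mean of 3 (axes differ and do not start at 0). COL4A5 is above its hESC levels on all day 14 arrays, and COL18A1 is lowest in Shef1 in every group.

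FACIT members outside type IX varied with line and medium. In hESC COL12A1 stood at 8.49, 6.13 and 8.10, in DFNB at 9.69, 9.75 and 8.71 and in FGF3+10 at 10.46, 6.51 and 7.40. COL12A1, which sits on type I fibrils, was higher in DFNB in every line by 1.81 ± 1.01 (adjusted p = 0.415), and with the FGFs it was high in Shef3 alone. Its other probe sets averaging 4 or more gave 1.58 in DFNB with all lines higher, and 0.43 with 1 of 3 higher. COL16A1 was lower in FGF3+10 than in DFNB by -0.52, -2.62 and -0.77, with a mean of -1.30 ± 0.74. The FACIT median was 0.10 in DFNB and -0.11 in FGF3+10 against hESC. FACIT chains COL19A1 and COL20A1 were below 4 on every array.

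Among the transmembrane chains, COL13A1 differed from hESC in opposite directions in Shef3 and Shef1. On the hESC arrays COL13A1 gave 5.64, 6.87 and 7.62, on the DFNB arrays 7.02, 6.48 and 6.38 and on the FGF3+10 arrays 7.54, 6.96 and 6.74. COL23A1 read 5.18, 6.32 and 4.89 in hESC, 5.22, 4.53 and 4.45 in DFNB and 4.22, 5.47 and 4.28 in FGF3+10. COL13A1, found at cell adhesion sites, was higher than in hESC in Shef3, by 1.38 in DFNB and 1.90 in FGF3+10, and lower in Shef1, at -1.24 and -0.88. It was higher with the FGFs by 0.52, 0.48 and 0.36, or 0.45 ± 0.51 (adjusted p = 1.00). COL23A1 was lower than in hESC in all lines with the FGFs, by -0.81 ± 0.50 (adjusted p = 0.563). COL25A1 stayed below 4.

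The network-forming chains COL8A1 and COL8A2 make up type VIII, known from the corneal endothelium and vessel walls. The levels of COL8A1 were 4.99, 7.03 and 8.89 in hESC, 8.12, 9.73 and 9.58 in DFNB and 9.97, 6.57 and 7.72 in FGF3+10. In hESC COL8A2 stood at 1.62, 4.24 and 3.84, in DFNB at 7.11, 5.91 and 3.22 and in FGF3+10 at 5.48, 4.76 and 3.48. Both spread widely within groups, and the hESC level of Shef3 was the lowest for each. DFNB minus hESC was 2.18 ± 1.11 for COL8A1, higher in all lines, and 2.18 ± 1.07 for COL8A2, higher in 2 of 3 (adjusted p = 0.378 and 0.362). COL10A1, the hypertrophic cartilage chain, was below 4 on all arrays.

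On the hESC arrays COL7A1 gave 5.65, 5.11 and 7.09, on the DFNB arrays 4.21, 6.95 and 4.88 and on the FGF3+10 arrays 4.56, 5.36 and 3.47. COL7A1, the anchoring fibril chain of skin, was lower with the FGFs than in hESC in Shef3 and Shef1, with a mean of -1.48 ± 0.82 (adjusted p = 0.514). COL26A1 read 7.28, 7.92 and 6.41 in hESC, 8.71, 8.14 and 7.57 in DFNB and 8.75, 8.44 and 7.41 in FGF3+10. COL26A1, a collagen of no large class, was higher in all lines in both media, by 0.94 ± 0.52 and 0.99 ± 0.52 (adjusted p = 0.415 and 0.486), with groups that overlapped.

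Levels were also compared between the lines over the 3 groups. No collagen passed the moderated F test of limma in a model of group and line, where 0.46% of all genes did, and 11 had an unadjusted p below 0.05, or 25.6%, against 20.3% of all genes. The lowest adjusted p-values were 0.0594 for COL18A1 and 0.0717 for COL9A2. COL18A1 averaged 9.97 ± 0.23 (SD over the 3 groups) in Shef3, 9.72 ± 0.22 in H14 and 8.13 ± 0.35 in Shef1. COL9A2 averaged 7.02 ± 0.17, 6.19 ± 0.22 and 4.84 ± 0.50. Shef1 was lowest in every group for both. COL4A2 averaged 11.08, 10.91 and 9.53, COL3A1 12.25, 12.05 and 10.32, and COL6A2 8.06, 7.77 and 5.54 in Shef3, H14 and Shef1.

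Shef1 was the lowest line in all 3 groups for 11 of 43 collagens, against 18.0% of all genes, and for 10 of the 32 with a mean of 4 or more, against 21.9%. In both day 14 groups it was the lowest for 23 of 43 (27.2% of all genes), and for 20 of those 32 (31.8%). These 20 include COL1A2, COL3A1, COL5A1, COL5A2, COL4A1, COL4A2 and the 3 measurable type VI chains. Both the poly-A spike-ins and the pluripotency list were highest in this line at day 14, while hybridisation spike-ins, added after labelling, read 9.04 and 9.23 in it against 9.20 to 9.82 in the other lines, and their part in its collagen levels was not tested.

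Whether the day 14 change itself differs between lines was tested with both day 14 arrays of a line as its day 14 group. Since those 2 arrays differ in medium, these p-values do not measure repeats of a line. No collagen passed in limma (0.0% of all genes), and 6 had an unadjusted p below 0.05 (14.0%, against 19.4% of all genes): COL13A1, COL2A1, COL4A6, COL6A5, COL8A2 and COL9A1. The mean day 14 difference of COL2A1 was 2.76, 3.36 and 4.53 for the lines Shef3, H14 and Shef1, the line with the lowest start. COL9A1 differed by 0.50, -0.26 and 2.89, and COL8A2 by 4.67, 1.09 and -0.49.

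Genes that modify, fold, process, crosslink, degrade and bind collagen were read from lists chosen for the pathway. None was called in limma in any of the 3 group comparisons, and the cell line block called MMP1 alone. For DFNB minus hESC the list medians were 0.59 for 14 hydroxylases and glycosyltransferases, 0.31 for 10 chaperones and secretion factors, 0.24 for 10 processing genes, 1.24 for 7 crosslinking genes, 0.22 for 8 collagenases and -0.10 for 9 receptors. For FGF3+10 minus DFNB they were -0.34, -0.34, -0.34, -0.84, -0.59 and -0.34, all below the 0.00 of all genes. In H14 and Shef1 each list median was also below that of all genes. In Shef3 the list medians were -0.19, -0.11, -0.23, 0.15, -0.22 and 0.84, against -0.10 for all genes. The crosslinking and receptor lists were thus not lower in that line. At an unadjusted p below 0.05, DFNB minus hESC had 6 of these 58 genes higher (6.11% of all genes) and 1 lower (9.69%). FGF3+10 minus hESC had 1 higher (4.52%) and 2 lower (7.47%), and FGF3+10 minus DFNB had 1 lower (0.794%).

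BMP1, the protease that removes the C-propeptide of fibrillar procollagens, read 3.47, 3.63 and 3.32 in hESC, 6.91, 7.52 and 5.18 in DFNB and 7.15, 5.75 and 3.53 in FGF3+10. It was higher in all lines, by 3.06 ± 0.90 in DFNB (adjusted p = 0.176). PCOLCE2, which enhances that cleavage, differed by -0.98 ± 0.44. LOX, which crosslinks fibrils, read 7.82, 7.01 and 8.40 in hESC, 9.48, 10.53 and 9.31 in DFNB and 9.76, 7.13 and 7.34 in FGF3+10. The FGF arrays of H14 and Shef1 were low while that of Shef3 was not, and FGF3+10 minus DFNB was -1.70 ± 0.73 (adjusted p = 1.00). TGM2 and LOXL1, also crosslinking enzymes, were higher in DFNB than in hESC by 3.27 ± 1.30 and 1.86 ± 1.01.

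Of the enzymes that hydroxylate collagen, P4HA2 was higher in DFNB by 1.30 ± 0.62, and P3H4, a partner in lysyl hydroxylation, by 0.88 ± 0.38 (adjusted p = 0.347 and 0.310). The endoplasmic reticulum foldases FKBP14 and FKBP10 differed by 1.07 ± 0.63 and 0.83 ± 0.61. KLHL12, from the same list of chaperones and secretion factors, differed by -0.75 ± 0.37. ITGA1, a collagen-binding integrin chain, differed by 2.77 ± 0.89 in DFNB and 2.25 ± 0.89 in FGF3+10, with adjusted p-values of 0.206 and 0.359. ITGA11, from the same receptor list, read 3.37, 2.13 and 5.95 in hESC, 7.46, 7.78 and 5.90 in DFNB and 8.34, 3.62 and 3.17 in FGF3+10. DDR2, a receptor kinase for fibrillar collagen, differed by 2.59 ± 0.84 and 1.05 ± 0.84. MMP1, the interstitial collagenase, read 5.52, 7.27 and 10.36 in hESC, 3.67, 5.08 and 6.30 in DFNB and -0.90, 2.97 and 3.72 in FGF3+10. It was thus lower in every line, by -5.79 ± 1.49 in FGF3+10 against hESC (adjusted p = 0.176, and 0.0297 with the block), though its FGF3+10 values lay below 4, in the noisier range, so that the size is uncertain. MMP2, a gelatinase, differed from hESC by 1.20 ± 0.75 in DFNB and 0.39 ± 0.75 in FGF3+10.

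Most collagens are read by several probe sets, and these were compared where another set averaged 4 or more. Of 17 such collagens, the other set had the opposite sign in 2 for DFNB minus hESC (COL4A6 and COL22A1), in 6 for FGF3+10 minus hESC (COL1A2, COL5A2, COL4A6, COL12A1, COL22A1 and COL13A1) and in 2 for FGF3+10 minus DFNB (COL27A1 and COL4A6). For all 6 of these the FGF3+10 minus hESC difference of the chosen set lay within its SE of 0. The sign for COL2A1, COL11A1, COL1A1 and COL6A2 was the same for every set averaging 4 or more, in the comparisons named for them above.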

How the data were processed

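Affymetrix 3′ arrays were made from 200 ng total RNA with biotin labelling, per the labels' protocols. The deposited table holds log2 values per probe set, scaled by the authors to a common array median of 3.20 (range -14.4 to 13.3). The base of the logarithm, the software and any background correction were not given in the sources used here; log2 is assumed. Of 54675 probe sets, 62 were controls, 41097 had 1 symbol, 1801 several and 11715 none in the annotation, and 41043 Entrez identifiers matched current symbols. The brightest probe set on average stood for each of 19775 genes.

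Group comparisons used limma 3.58.1 under R 4.3.3 (lmFit and eBayes, group means over 9 arrays, Benjamini-Hochberg over all genes, called below 0.05), and lines with a moderated F test. The script was tested on simulated data. Deviations from group means correlated within Shef3, H14 and Shef1 at 0.105, 0.0861 and 0.338 (DFNB and hESC), 0.181, 0.258 and 0.283 (FGF3+10 and hESC) and 0.400, 0.331 and 0.713 (FGF3+10 and DFNB). Between different lines these correlations ran from -0.249 to 0.173, from -0.274 to 0.0558 and from -0.501 to 0.222. The pairing comes from the cell line label. SEs and p-values of group comparisons given without mention of the block come from the fit of group means. In that fit, differences between lines count as spread.

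Every collagen could be named, and all 9 values are given for COL1A1, COL1A2, COL2A1, COL3A1, COL4A1, COL4A2, COL11A1, COL9A1, COL18A1 and the 2 members per class with the largest day 14 difference at a mean of 4 or more. Values of COL4A6, COL5A1, COL5A2, COL5A3 and COL6A3 were added after they were seen. Of pathway lists, called genes or the 2 with the largest difference are named. LOX and DDR2 were added after their values were seen, and FKBP10 is named outside that rule. Members and lists were chosen with earlier results of these data known. Alternatives covered normalization, filters, probe sets, array weights, the block and left-out arrays. Some list members are not reported here.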

Additional observations from a re-analysis of the deposited data

How the results depend on the processing

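The number of collagens called in limma was 0 for every comparison in the main setting. For DFNB against hESC it was 1 with values below 4 set to 4 (COL5A3), 3 with array weights (COL11A1, COL2A1 and COL5A3) and 1 with the cell line as a replicate block (COL2A1). For FGF3+10 against hESC it was 1 with that floor and 1 with the mean of probe sets (both COL5A3), 2 with array weights (COL2A1 and COL5A3) and 1 with the replicate block (COL2A1). The block changed no other collagen call. For the cell lines it was 2 among genes with a mean of 4 or more and 2 with the floor (COL18A1 and COL9A2 in both), 1 with the mean of probe sets (COL18A1) and 14 with array weights. It was 0 for FGF3+10 against DFNB and for the day 14 change by line under every setting run, and 0 to 0 over all left-out lines and arrays in each comparison. All day 14 values of COL5A3 lay below 4, so the floor set them equal and removed their spread, and its calls there follow from that construction. Fewer genes were tested under the filter and the floor, and other causes were not tested. The array weights fit of 1 comparison did not fully converge. Shares of all genes called under each of these settings are not given here. Over the settings, the count of all genes called reached 1612 for DFNB against hESC, 284 for FGF3+10 against hESC and 4475 for the lines. The collagen counts above, among them the 14 with array weights, are therefore not read as a collagen result.

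No collagen that was called under any setting had another sign in any other. COL2A1 ranged from 2.64 to 4.04 in both day 14 comparisons, COL11A1 from 2.94 to 4.26 in DFNB and from 2.05 to 3.67 in FGF3+10, and COL5A3 from -2.57 to -1.06 and from -2.95 to -1.06. The adjusted p of COL2A1 ranged from 0.0245 to 0.530 in DFNB and from 0.0373 to 0.603 in FGF3+10. Over all genes the count called ranged from 0 to 1612 for DFNB against hESC (40 in the main setting, 189 with the block, and 0 without Shef3 or without H14), from 0 to 284 for FGF3+10 against hESC (35, 115 and 0), from 4 to 4475 for the lines, and from 0 to 1744 for the day 14 change by line. With 3 arrays per group, their number limits the precision.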
